A study of Mus musculus with 12 samples.

Results

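The Serpin genes encode a family of protease inhibitors and related proteins that share one fold. They were defined here as every probe set annotated to exactly 1 gene whose symbol starts with Serpin, without pseudogene (-ps) names, and with 1 probe set kept per gene, the one with the highest mean over all arrays. This gave 53 genes of 22180 on the array. The rule used names and mean intensity and no measured difference between groups, but the family was chosen with earlier results of these data known. Liver RNA of male mice on a C57BL/6 background, 8 to 10 weeks old at the start, had been hybridised to Mouse Gene 2.0 ST arrays from Affymetrix, whose probes are spread along each transcript. The 4 groups, with 3 arrays each, were Pparβ/δ-/- mice fed a liquid ethanol diet of 4% (v/v) for 16 weeks (null ethanol), Pparβ/δ-/- mice fed the liquid control diet for 16 weeks (null control), wild-type mice fed the ethanol diet (wild-type ethanol) and wild-type mice fed the control diet (wild-type control). All mice had first had 1 week on the control diet. The labels name no cell type for the null allele. They give 10 mice per group and do not tie arrays to mice, so the errors and p-values given here cover only the spread between these samples, which may be technical.

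Most serpins are suicide inhibitors. The target protease cuts an exposed loop of the serpin, the serpin then refolds, and both proteins stay joined and inactive. Hepatocytes secrete many of the serpins of blood plasma, among them the inhibitors of neutrophil elastase, thrombin, plasmin and the first complement protease, while clade B serpins stay mostly inside cells and protect them from their own proteases. A few serpins inhibit nothing and carry hormones or fold collagen instead. Clades are named by the letter after Serpin in the symbol. PPARβ/δ is a nuclear receptor for fatty acids.

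The mouse alpha-1-antitrypsin genes, Serpina1a to Serpina1e, are near copies of one another and lie side by side on chromosome 12. Their upstream stretches are shown because the 5 genes did not give the same values below, although these stretches differ by few bases. Each is 106 bases of the promoter (RefSeq, GRCm38.p6, minus strand, 5′ to 3′), placed on the GTTAAT that all 5 share. Capitals mark this GTTAAT, the core of the binding motif of HNF1, a transcription factor of hepatocytes.
Serpina1e (chr12:103956960-103957065): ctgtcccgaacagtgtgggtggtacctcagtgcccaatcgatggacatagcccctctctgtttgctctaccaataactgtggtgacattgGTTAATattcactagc
Serpina1a (chr12:103863625-103863730): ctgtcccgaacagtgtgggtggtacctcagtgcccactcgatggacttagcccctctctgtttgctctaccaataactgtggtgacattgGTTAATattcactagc
Serpina1b (chr12:103738200-103738305): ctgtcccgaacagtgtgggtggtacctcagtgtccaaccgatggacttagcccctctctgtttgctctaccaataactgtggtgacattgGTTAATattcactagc
Serpina1c (chr12:103904962-103905067): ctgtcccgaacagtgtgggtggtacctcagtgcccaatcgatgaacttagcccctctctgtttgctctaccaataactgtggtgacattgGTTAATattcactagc
Serpina1d (chr12:103773634-103773739): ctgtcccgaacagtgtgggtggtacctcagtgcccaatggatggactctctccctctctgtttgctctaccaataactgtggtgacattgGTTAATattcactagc
Against Serpina1e, Serpina1a differed at 2 of the 106 bases, Serpina1b at 3, Serpina1c at 2 and Serpina1d at 6. The annotated start of Serpina1e lies 62 bases after the end of its stretch, and those of the other 4 genes lie 0 to 11 bases after theirs, so the windows of equal distance to the start are not the same sequence in all 5 genes.

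The 2 other genes on which the results turn are Serpina12, which encodes vaspin, a kallikrein inhibitor known as an adipokine, and Serpina7, which encodes the thyroxine-binding globulin. The last 150 bases before their annotated starts are given in the same way (RefSeq, GRCm38.p6, minus strand), again with GTTAAT in capitals.
Serpina12 (chr12:104044444-104044593): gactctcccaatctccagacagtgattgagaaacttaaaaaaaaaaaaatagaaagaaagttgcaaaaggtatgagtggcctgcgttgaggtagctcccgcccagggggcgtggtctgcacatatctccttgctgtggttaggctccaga
Serpina7 (chrX:139085237-139085386): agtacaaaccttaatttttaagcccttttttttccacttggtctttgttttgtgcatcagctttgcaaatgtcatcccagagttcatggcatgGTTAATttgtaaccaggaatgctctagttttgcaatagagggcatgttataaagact
A promoter was listed for 47 of the 53 genes, and the 250 bases before each start were searched on both strands. GTTAAT was present for 9 of the 47 genes, among them Serpina1a to Serpina1e, Serpina7 and Serpinb8, and in 6.43% of 32851 promoters of all genes. The PPAR element, a direct repeat of AGGTCA with 1 base of any kind between, was found for 0 of the 47 genes and in 0.0335% of all promoters. TTCNNNGAA, the STAT element, was present for 6 genes, among them Serpina11 and Serpinb6a, and in 7.02% of all promoters. TATAAA was present for 11 genes, among them Serpina7, and in 12.4% of all promoters. The Serpin counts are per gene, from 55 promoters of the 47 genes, while the shares are per promoter, so they are not like for like. Serpina1a to Serpina1e are also near copies and share their match. All hits are matches of letters, and no match says only that the letters are not in this window.

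**Figure D1:**
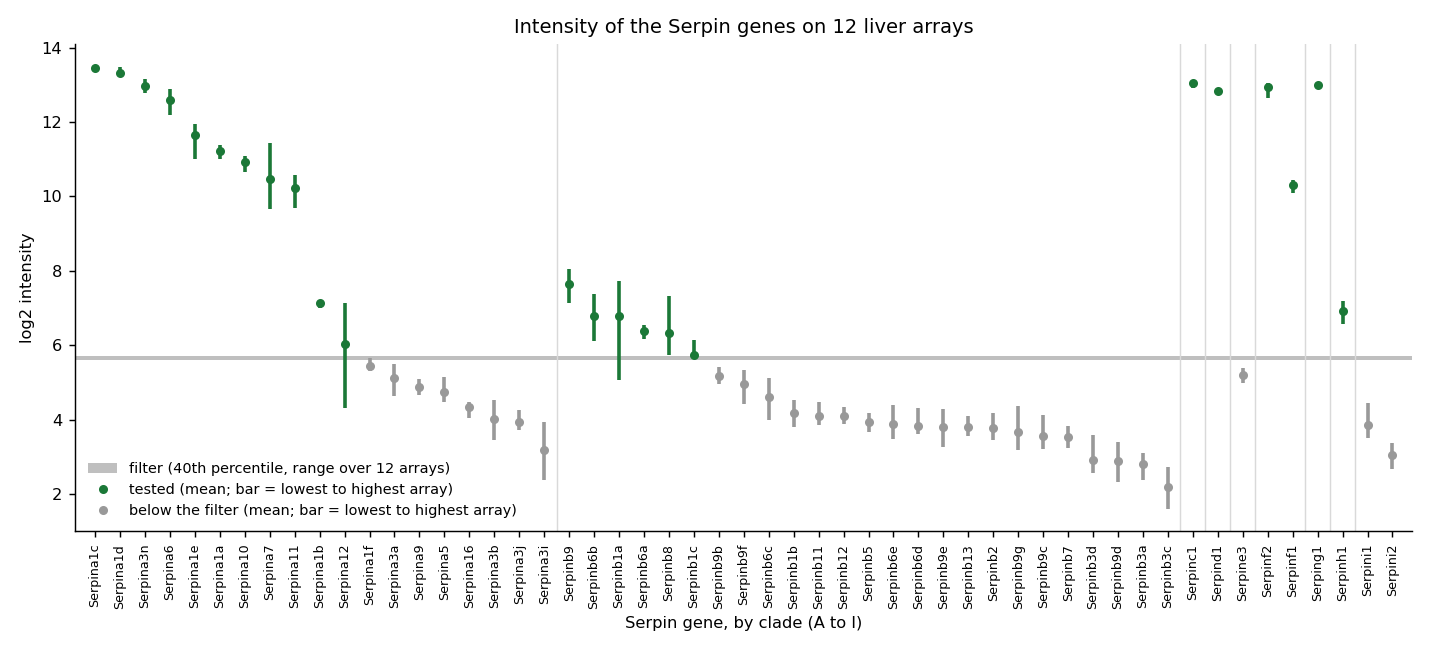
Log2 intensity (y axis) of the 53 Serpin genes (x axis, by clade A to I and by mean within a clade), with the mean over 12 arrays as a point and the lowest to highest array as a bar. The grey band is the range of the filter over the arrays, 5.61 to 5.71, and 23 genes in green were tested while 30 genes in grey lay below it.

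The deposited values are intensities normalised with RMA, and log2 intensities are given throughout. Levels are compared only within a gene, because probe sets differ in brightness for the same amount of RNA. A gene was tested if it lay above the 40th percentile of its array (5.61 to 5.71) on at least 3 arrays, which kept 14031 genes and 23 of the 53 Serpin genes (43.4%, against 63.3% of all genes). Array medians lay between 5.55 and 5.62. All 8 hepatocyte markers, which include the family member Serpina1b, and 2 of 10 neutrophil markers lay above the filter. Ppard, the disrupted gene, had log2 intensities of 7.88 to 8.06 in null ethanol, 7.69 to 7.91 in null control, 7.77 to 7.96 in wild-type ethanol and 7.64 to 8.01 in wild-type control arrays, a genotype change of 0.08 ± 0.08 averaged over the diets (limma adjusted p = 0.621). Which part of the gene the null allele lacks, and whether the probes lie in it, is not stated in the labels, so Ppard does not check the genotype labels and the groups are named as labelled. The calls for ethanol in wild-type livers depended on 1 array: without wild-type control 2, 811 of all genes were called, against 13 with it. Whether this array is an outlier was not tested.

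By clade, 11 of 19 genes of clade A were tested, 6 of 25 of clade B, the single genes of clades C, D, G and H, both genes of clade F, 0 of 1 of clade E and 0 of 2 of clade I. The plot of all 53 levels shows the 30 dim genes with means from 2.18 to 5.43 and no array value above 5.66. They include Serpina5 (protein C inhibitor), Serpini1 (neuroserpin), Serpina3a, Serpina3b, Serpina3i and Serpina3j, and 19 genes of clade B. Such a low value does not show that a gene is silent. Closest to the filter were Serpinb1c (mean 5.75, above it on 10 arrays) and Serpina12 (mean 6.04, above it on 9 arrays) on the inside and Serpina1f (mean 5.43, above it on 0 arrays) on the outside. Of 57 probe sets that name a Serpin gene, 4 were not used: 2 that name several genes, 1 of the pseudogene Serpina4-ps1 and the dimmer of the 2 probe sets of Serpinb9b.

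The 5 tested serpins that inhibit coagulation, fibrinolysis or complement varied by less than 0.5 between the 12 arrays. Serpinc1 encodes antithrombin and had log2 intensities of 13.05, 13.03 and 13.00 in null ethanol, 13.05, 13.08 and 13.09 in null control, 13.07, 13.01 and 13.01 in wild-type ethanol and 13.04, 12.92 and 13.06 in wild-type control arrays. All 4 groups of Serpinc1 overlapped. Serpind1, which encodes the thrombin inhibitor heparin cofactor II, spanned 12.71 to 12.91 over the 12 arrays. Serping1, which encodes the C1 inhibitor of complement and the contact system, spanned 12.88 to 13.08. Serpinf2, which encodes alpha-2-antiplasmin, the main plasmin inhibitor, spanned 12.63 to 13.04, and its lowest value was in null ethanol 3. Serpina10, which encodes the protein Z-dependent inhibitor of factor Xa, spanned 10.66 to 11.08. None of these 5 genes was called in any of the 7 contrasts (limma, Benjamini-Hochberg adjusted p under 0.05 over 14031 genes). Between 0.00713% and 7% of all genes were called per contrast, so 0 of 5 is near the background and says nothing particular about these genes. Averaged over the diets, null minus wild-type was 0.03 ± 0.05 for Serpinc1 (SE, 95% confidence interval -0.09 to 0.15), 0.01 ± 0.05 for Serpind1, -0.08 ± 0.05 for Serping1, 0.00 ± 0.07 for Serpinf2 and 0.02 ± 0.08 for Serpina10. Serpind1 was lower with ethanol in null livers (-0.08 ± 0.08) and higher in wild-type livers (0.06 ± 0.08), without overlap in either and without passing, an array pattern shared by 2.08% of all genes. The highest intensity on any array was 14.3 on the log2 scale, and the sources used here do not say whether bright probe sets were saturated.

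Alpha-1-antitrypsin is the main plasma inhibitor of neutrophil elastase, but which proteases each mouse copy inhibits was not checked. Among the 5 alpha-1-antitrypsin genes above the filter, 1 was called lower, in null livers on the ethanol diet. Serpina1e had log2 intensities of 11.01, 11.55 and 11.34 in null ethanol, 11.79, 11.71 and 11.74 in null control, 11.95, 11.94 and 11.76 in wild-type ethanol and 11.57, 11.60 and 11.86 in wild-type control arrays. The 3 null ethanol arrays were the lowest 3 of the 12, and null ethanol 1 was lower still by a gap. On the ethanol diet Serpina1e fell in null livers by 0.58 ± 0.13 on the log2 scale, 1.5-fold (95% confidence interval -0.86 to -0.31, limma adjusted p = 0.0373). This was the only Serpin gene called in that contrast, 1 of 23, where 1.79% of all 14031 genes were called and 1.33% were called lower. An unadjusted p under 0.05 was found for 6 of 23 (16.2% of all genes), Serpina1e, Serpina1a, Serpina7, Serpina12, Serpinb9 and Serpinh1. On the control diet null minus wild-type was 0.07 ± 0.13 (adjusted p = 0.786). The ethanol change was -0.45 ± 0.13 in null livers (adjusted p = 0.293) and 0.21 ± 0.13 in wild-type livers (adjusted p = 0.474), and their difference, the interaction, was -0.66 ± 0.18 and did not pass (adjusted p = 0.191).

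The call on Serpina1e did not hold in 6 of the 12 fits that each left out 1 array. Null minus wild-type on ethanol became -0.44 when null ethanol 1 was left out and -0.60 when null ethanol 3 was. It was -0.58 with null control 2 left out. Leaving out wild-type ethanol array 1, 2 or 3 gave -0.55, -0.56 and -0.65 in that order. These 6 fits had limma adjusted p-values from 0.0542 to 0.146. The direction was the same in all 12 fits, from -0.71 to -0.44. The call was also lost without the filter on dim genes (adjusted p = 0.0722), after quantile normalization (0.0548) and in a fit of the 6 ethanol arrays alone (0.0839).

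The near copies had smaller changes in this contrast, though in the same direction. Serpina1a had 11.01, 11.25 and 11.03 in null ethanol, against 11.28, 11.21 and 11.39 in wild-type ethanol arrays, and its groups overlapped. Its difference was -0.20 ± 0.09 (95% confidence interval -0.40 to -0.0013, limma adjusted p = 0.306). This interval overlaps that of Serpina1e, so the 2 genes are not clearly apart. Serpina1c differed by -0.03 ± 0.07, Serpina1d by -0.02 ± 0.09 and Serpina1b by -0.09 ± 0.08 in the same contrast, with 95% confidence intervals from -0.26 to 0.16 over these 3 genes. Serpina1c was the steadiest of the 23 genes, with a range of 0.11 over all 12 arrays, against 0.94 for Serpina1e. It was also the brightest (mean 13.44), and whether bright probe sets were saturated is not known, which limits comparisons with Serpina1c and Serpina1d. Within each array, Serpina1e minus Serpina1c was -2.42 to -1.87 in null ethanol, -1.69 to -1.67 in null control, -1.73 to -1.48 in wild-type ethanol and -1.84 to -1.56 in wild-type control arrays. Against Serpina1c the null ethanol arrays lay below the other 9. Serpina1e minus Serpina1a was 0.01 to 0.31 in null ethanol and 0.46 to 0.58 in null control arrays. It was 0.37 to 0.73 in wild-type ethanol and 0.32 to 0.53 in wild-type control arrays. Against Serpina1a the null ethanol arrays thus lay only just below the wild-type control arrays. Serpina1e minus Serpina1d was -2.29 to -1.72 in null ethanol, -1.58 to -1.47 in null control, -1.51 to -1.37 in wild-type ethanol and -1.88 to -1.44 in wild-type control arrays, and here null ethanol and wild-type control arrays overlapped. These within-array differences were not tested. Whether a probe of one copy also binds RNA of another was not checked, so each value is uncertain as to the copy measured. The sixth gene of the group, Serpina1f, lay below the filter on every array.

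**Figure D2:**
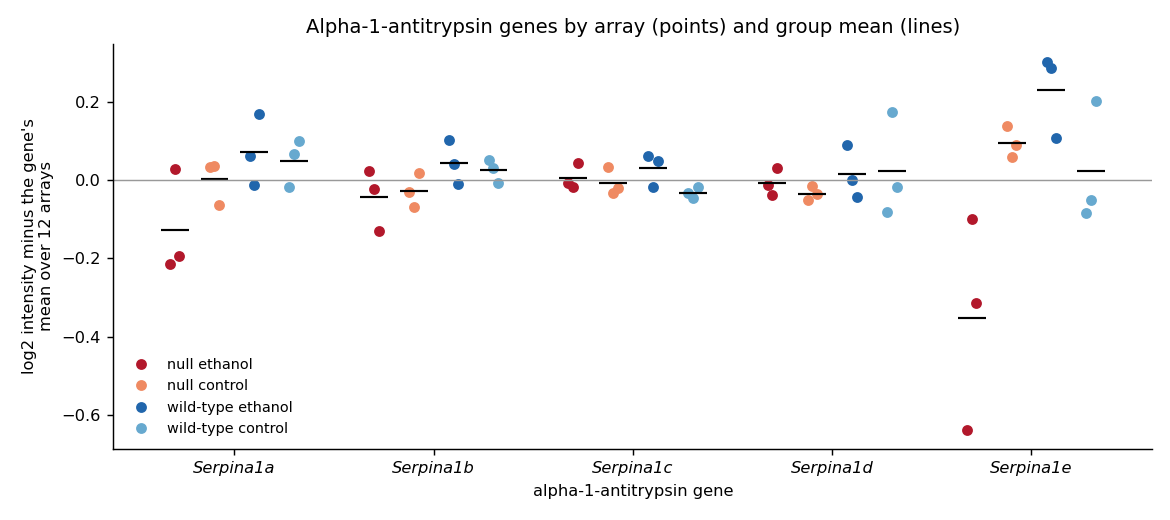
Log2 intensity minus the gene's own mean over 12 arrays (y axis) for the 5 alpha-1-antitrypsin genes above the filter (x axis), with a point per array, a line per group mean and colours for the 4 groups. The null ethanol arrays of Serpina1e are the 3 lowest of its 12, while Serpina1c spans 0.11 over all arrays.

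Serpina3n, an acute-phase relative of human alpha-1-antichymotrypsin, was the one gene of the Serpina3 group above the filter. Its values were 13.01, 13.15 and 12.98 in null ethanol, 13.15, 13.02 and 12.80 in null control, 12.78, 12.97 and 13.10 in wild-type ethanol and 12.78, 12.91 and 13.10 in wild-type control arrays. All 4 groups overlapped, and the change was 0.08 ± 0.08 for genotype averaged over the diets, 0.06 ± 0.12 for ethanol in null livers and 0.02 ± 0.12 for ethanol in wild-type livers. Of 16 other acute-phase genes tested, 1 fell with genotype averaged over the diets, Saa2, a serum amyloid A gene, at -1.72 ± 0.42 (limma adjusted p = 0.0267), and 0 rose. In that contrast 7% of all genes were called and 3.98% were called lower, so 1 of 16 is near the background. The median of these 16 genes was -0.06, against 0.00 over all genes. Of 9 genes of interleukin 6 and STAT3 signalling, 0 passed in any contrast, where 0.00713% to 7% of all genes were called. The smallest p among them was that of the kinase gene Jak2 on the control diet, at -0.45 ± 0.13 (limma adjusted p = 0.0583).

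Serpina12 fell in null livers. Its log2 intensities were 4.79, 6.07 and 4.33 in null ethanol, 5.83, 6.08 and 5.31 in null control, 6.08, 6.70 and 6.53 in wild-type ethanol and 7.14, 7.03 and 6.57 in wild-type control arrays. On each diet the null arrays lay below the wild-type arrays, and over both diets the groups met at 6.08, in null control 2 and wild-type ethanol 1. Averaged over the diets, the null mean was 5.40 and the wild-type mean 6.68, a change of -1.27 ± 0.25, 2.42-fold lower in null livers (95% confidence interval -1.81 to -0.73, limma adjusted p = 0.0085). It was the only Serpin gene called for genotype, 1 of 23, where 7% of all genes were called and 3.98% were called lower. An unadjusted p under 0.05 was found for 4 of 23 (21.4% of all genes), Serpina12, Serpina1e, Serpinb8 and Serpinh1. The change was -1.38 ± 0.35 on the ethanol diet (adjusted p = 0.0729) and -1.17 ± 0.35 on the control diet (adjusted p = 0.0716), and neither passed alone. In the averaged contrast Serpina12 kept its call in all 12 fits without 1 array, between -1.53 and -1.09.

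The null arrays of Serpina12 reached the dim range of the array. In null livers 3 of 6 arrays lay below the filter and in wild-type livers 0, so background limits the fold. On the control diet Serpina12 was called without null ethanol 2 (limma adjusted p = 0.0159) and without null ethanol 3 (adjusted p = 0.0429). These arrays are not part of that contrast, so the change stayed at -1.17 and only the estimated spread and the genes tested differed. Those fits called 561 and 901 of all genes, against 715 in the main fit. Serpina12 was also called with 16 added to each intensity before log2 (849 of all genes called), with the 6 control-diet arrays alone (226) and with the replicate block (613). On the ethanol diet it was called without null ethanol 2, at -1.88, and was -1.01 without null ethanol 3. Ethanol minus control was -0.68 ± 0.35 in null and -0.48 ± 0.35 in wild-type livers and did not pass in either (adjusted p = 0.451 and 0.562). Averaged over the genotypes the ethanol change was -0.58 ± 0.25 (adjusted p = 0.387), and the interaction was -0.21 ± 0.50. Serpina11 differed between the genotypes by 0.06 ± 0.17 on the ethanol diet and 0.36 ± 0.17 on the control diet (adjusted p = 0.227).

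**Figure D3:**
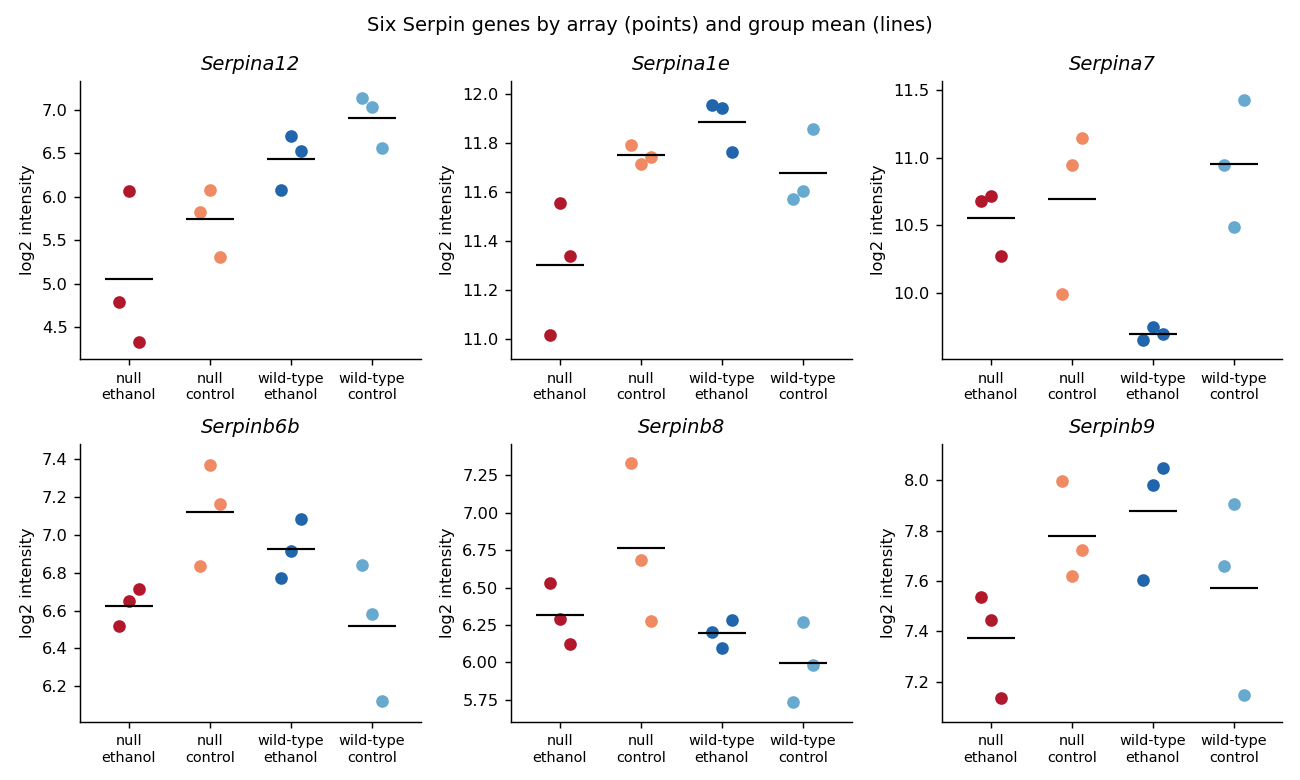
Log2 intensity (y axis) of 6 Serpin genes in the 4 groups (x axis), with a point per array and a line at the group mean. Serpina12 is lower in null than in wild-type arrays on each diet, the 3 null ethanol arrays of Serpina1e are its lowest, and the 3 wild-type ethanol arrays of Serpina7 (9.65, 9.75 and 9.70) lie below all others.

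Among the serpins that inhibit no protease, 0 of 4 were called in any contrast, which is near the background of 0.00713% to 7% of all genes. Serpina7 had 10.68, 10.71 and 10.28 in null ethanol, 10.00, 10.94 and 11.15 in null control, 9.65, 9.75 and 9.70 in wild-type ethanol and 10.95, 10.49 and 11.43 in wild-type control arrays. The wild-type ethanol arrays were the lowest 3 of the 12 and lay closer together than those of the other 3 groups. In wild-type livers ethanol minus control was -1.25 ± 0.27, 2.38-fold lower, with all 3 ethanol arrays below all 3 control arrays, but it did not pass (95% confidence interval -1.83 to -0.67, limma adjusted p = 0.0914). Without wild-type control 2 the change was -1.48 and passed (limma adjusted p = 0.0175). That fit called 811 of 13982 genes in this contrast, against 13 of 14031 with all arrays, so the pass is not particular to Serpina7. Over the 12 fits without 1 array the change lay between -1.48 and -1.01. In null livers the ethanol change was -0.14 ± 0.27 (95% confidence interval -0.72 to 0.44). Null minus wild-type was 0.85 ± 0.27 on the ethanol diet (adjusted p = 0.138) and -0.26 ± 0.27 on the control diet (adjusted p = 0.615), and the interaction was 1.11 ± 0.38 (adjusted p = 0.237). The change between the genotypes on the ethanol diet passed without null control 1 (limma adjusted p = 0.0421). That array is not part of the contrast, so the size stayed the same and the standard error went from 0.27 to 0.19. It also passed in a fit of the 6 ethanol arrays alone, where Serpina7 was the 1 Serpin gene called. These fits called 320 of 13966 and 279 of 14031 genes, in that order, against 251 of 14031 in the main fit. Of 23 Serpin genes, 0 were called for ethanol in wild-type livers, where 0.0927% of all genes were called, and 2 had an unadjusted p under 0.05 (14.5% of all genes).

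The other hormone carrier of the group, Serpina6, encodes the corticosteroid-binding globulin. It spanned 12.19 to 12.89 with overlapping groups, and its genotype change averaged over the diets was 0.12 ± 0.13 (limma adjusted p = 0.679). Serpinf1, which encodes the secreted anti-angiogenic protein PEDF, changed by 0.01 ± 0.06 in that contrast and spanned 10.09 to 10.45. Serpinh1 encodes HSP47, a chaperone of collagen in the endoplasmic reticulum. Its values were 6.81, 6.68 and 6.63 in null ethanol, 6.56, 6.97 and 7.01 in null control, 6.98, 7.03 and 7.19 in wild-type ethanol and 7.02, 7.04 and 7.02 in wild-type control arrays. On each diet the null arrays lay below the wild-type arrays, and the averaged genotype change was -0.27 ± 0.08 and did not pass (adjusted p = 0.068). Without null control 3 it passed, at -0.31 (adjusted p = 0.0485). The collagen genes Col1a1, Col1a2 and Col3a1 were measured among 8 stellate cell markers. Of these 8, 0 passed in this contrast, where 7% of all genes were called. The median of 0.09 covers all 8 markers, not the collagen genes alone.

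**Figure D4:**
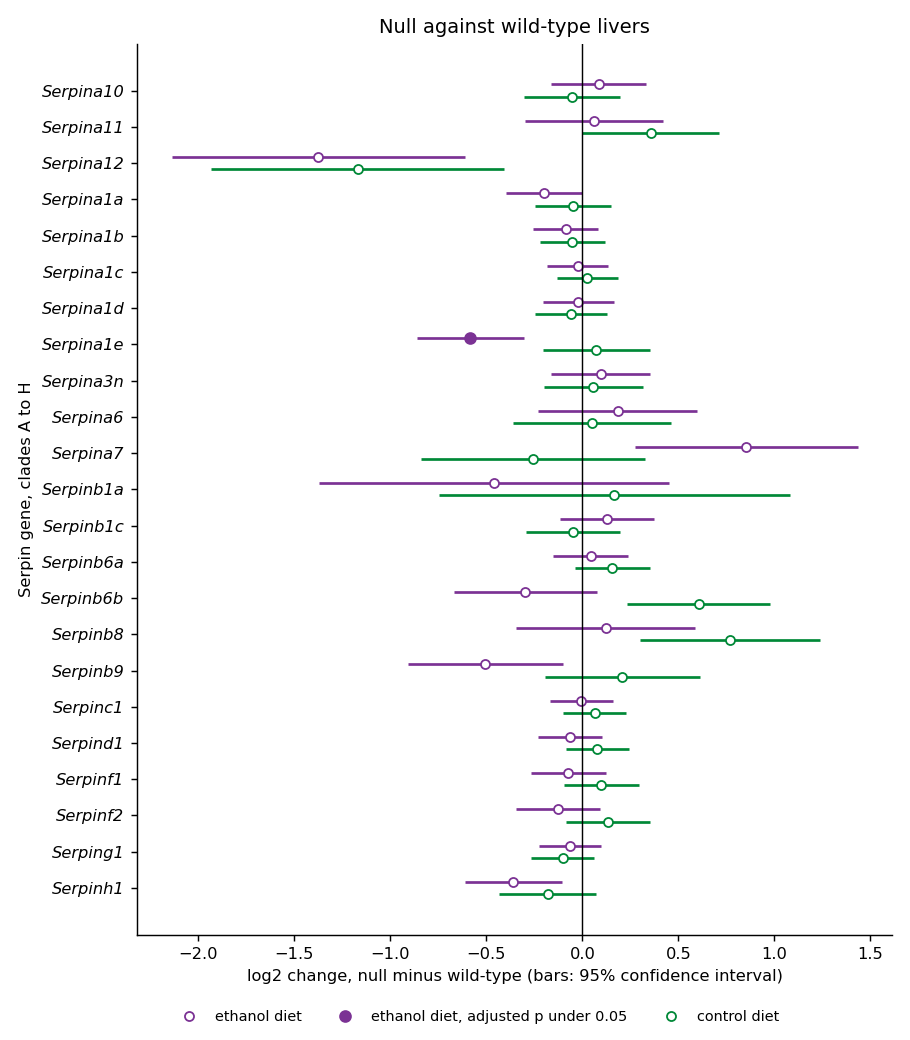
Log2 change of null minus wild-type livers (x axis) with its 95% confidence interval for the 23 tested Serpin genes (y axis), on the ethanol diet (above) and on the control diet (below) in each row. The filled point is Serpina1e on the ethanol diet, at -0.58, the one change called in these 2 contrasts.

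The intracellular serpins of clade B gave 6 tested genes, of which 0 were called in any contrast, again near the background of 0.00713% to 7% of all genes. Serpinb6b, a relative of the cathepsin G inhibitor Serpinb6a, had 6.52, 6.65 and 6.71 in null ethanol, 6.83, 7.37 and 7.16 in null control, 6.77, 6.92 and 7.09 in wild-type ethanol and 6.84, 6.58 and 6.12 in wild-type control arrays. Its null arrays were lower with ethanol without overlap (-0.50 ± 0.17, limma adjusted p = 0.331), and its wild-type arrays were higher with ethanol with overlap (0.41 ± 0.17, adjusted p = 0.303). The interaction was -0.90 ± 0.24 and did not pass (adjusted p = 0.191). On the control diet null minus wild-type was 0.61 ± 0.17 (adjusted p = 0.0612), which passed without null control 1 (0.75, adjusted p = 0.0378) and without wild-type control 1 (0.77, adjusted p = 0.0402).

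Serpinb9, which encodes an inhibitor of granzyme B in cytotoxic lymphocytes and other cells, had 7.54, 7.45 and 7.14 in null ethanol, 8.00, 7.62 and 7.72 in null control, 7.60, 7.98 and 8.05 in wild-type ethanol and 7.66, 7.90 and 7.15 in wild-type control arrays. Its ethanol change was -0.41 ± 0.19 in null and 0.31 ± 0.19 in wild-type livers, and the interaction was -0.71 ± 0.26 (limma adjusted p = 0.256). Serpinb8, which encodes an inhibitor of the proprotein convertase furin, had 6.53, 6.29 and 6.13 in null ethanol, 7.33, 6.68 and 6.28 in null control, 6.21, 6.09 and 6.28 in wild-type ethanol and 5.73, 6.27 and 5.98 in wild-type control arrays. On the control diet null minus wild-type was 0.77 ± 0.22 for Serpinb8 and did not pass (adjusted p = 0.0583), with the null arrays just above the wild-type arrays. It passed without null control 3 (1.01, limma adjusted p = 0.019) and without wild-type control 2 (0.91, adjusted p = 0.0373), and was 0.49 without null control 1. The fits in which it passed called 477 of 13968 and 1306 of 13982 genes, in that order, against 715 of 14031 with all arrays. Averaged over the diets the change was 0.45 ± 0.15 (adjusted p = 0.105), and 0.57 without null control 3, where it passed (adjusted p = 0.0253).

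The other 3 genes of clade B differed less or spread more. Serpinb1a, which encodes an inhibitor of neutrophil elastase and cathepsin G, had 7.0, 6.73 and 5.05 in null ethanol, 7.72, 6.87 and 6.90 in null control, 7.16, 6.08 and 6.92 in wild-type ethanol and 7.06, 7.09 and 6.85 in wild-type control arrays. Its ethanol change of -0.90 ± 0.42 in null livers (limma adjusted p = 0.41) was -0.30 without null ethanol 3, which held the lowest value. Serpinb6a spanned 6.16 to 6.55 and Serpinb1c 5.66 to 6.14, and their interactions were -0.11 ± 0.13 and 0.18 ± 0.16. Over the 6 genes the median interaction was -0.64 with 5 of 6 negative, against -0.14 over the 23 tested Serpin genes and -0.04 over all genes. These medians describe the list and carry no test. For the interaction 0 of 23 Serpin genes were called with limma, where 0.0143% of all genes were called, and 4 had an unadjusted p under 0.05 (15% of all genes): Serpinb6b, Serpina1e, Serpina7 and Serpinb9.

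In whole liver, fewer cells of a type and less RNA per cell cannot be told apart. Of 10 Kupffer cell and macrophage markers, 9 fell with genotype averaged over the diets (median -0.54), among them Cd5l at -0.94 ± 0.12 and Marco at -0.73 ± 0.11. In that contrast 3.98% of all genes were called lower. On the control diet 5 of the 10 were called lower, where 5.1% of all genes were called in either direction. On the ethanol diet 1 was called lower, Cd5l, where 1.33% of all genes were called lower. The summed intensity of the 10 markers was 3751 to 5451 in null ethanol, 2835 to 4030 in null control, 5897 to 7605 in wild-type ethanol and 4698 to 6953 in wild-type control arrays. Their median interaction was 0.14, with 10 of 10 positive. The 4 tested lymphocyte markers had a summed intensity of 231 to 248 in null ethanol, 220 to 259 in null control, 230 to 283 in wild-type ethanol and 255 to 283 in wild-type control arrays. In any contrast 0 of them passed, where 0.00713% to 7% of all genes were called, so this is near the background. The 8 stellate cell markers had a median interaction of -0.23 with 8 of 8 negative. For the interaction 0 of them passed, where 0.0143% of all genes were called. Of 7 endothelial markers 2 fell with genotype averaged over the diets, Pecam1 at -0.37 ± 0.09 and Tek at -0.47 ± 0.12, where 3.98% of all genes were called lower. On each diet alone 0 of the 7 passed, where 5.1% of all genes were called on the control diet and 1.79% on the ethanol diet. The part of these cell types in the clade B values was not tested.

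**Figure D5:**
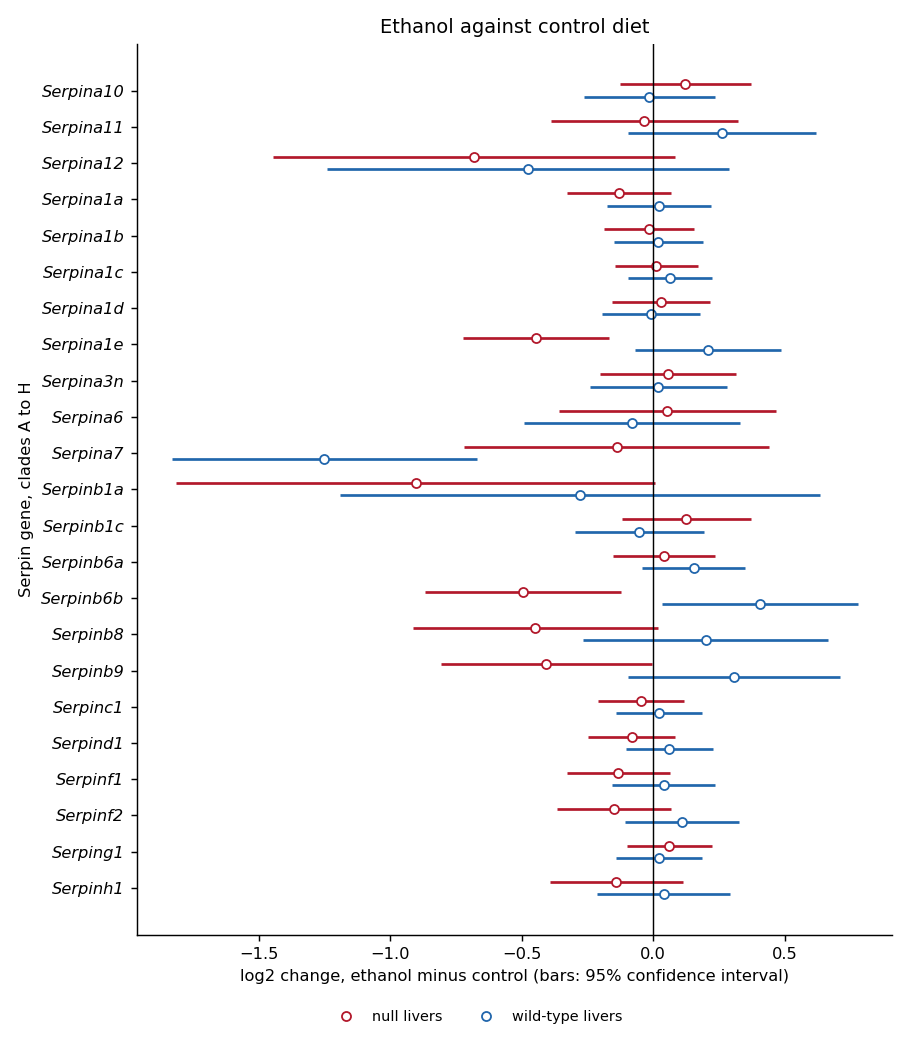
Log2 change of ethanol minus control diet (x axis) with its 95% confidence interval for the 23 tested Serpin genes (y axis), in null livers (above) and wild-type livers (below) in each row. No point is filled because none was called, and Serpina7 in wild-type livers lies farthest to the left, at -1.25.

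The size of the changes across the family was set beside that of all genes. For genotype averaged over the diets, the median change regardless of sign was 0.098 for the 23 Serpin genes, against 0.092 over all genes. For ethanol it was 0.126 in null livers, against 0.115 over all genes, and 0.064 in wild-type livers, against 0.117 over all genes. For genotype averaged over the diets, the median signed change was 0.01, against 0.00 over all genes. On the control diet 0 of 23 were called, where 5.1% of all genes were called, 3 had an unadjusted p under 0.05 (22.1% of all genes), and 7 had groups that did not overlap (30.4%, against 24.7% of all genes). On the ethanol diet 6 of 23 had groups that did not overlap (26.1%, against 24.1% of all genes). Ethanol and control arrays did not overlap for 5 of 23 genes in null livers (18.6% of all genes) and for 5 of 23 in wild-type livers (19.4% of all genes). For ethanol in null livers 0 were called, where 0.00713% of all genes were called, and 3 had an unadjusted p under 0.05 (12.2% of all genes): Serpina1e, Serpinb6b and Serpinb9. Averaged over the genotypes 0 were called for ethanol, where 0.0143% of all genes were called, and Serpina7 and Serpina12 had an unadjusted p under 0.05 (12.1% of all genes). The ethanol changes with the smallest p in that average were -0.70 ± 0.19 for Serpina7, -0.58 ± 0.25 for Serpina12 and -0.59 ± 0.30 for Serpinb1a. The genotype and ethanol contrasts share arrays and are given side by side, not as independent support.

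The proteases that serpins inhibit, with their cofactors and the clearance receptor, were measured as 18 tested genes of 20 on the array. None of them was called in any of the 7 contrasts, where 0.00713% to 7% of all genes were called. The smallest p-values were those of C1s1, a protease of the first complement component that the C1 inhibitor blocks, at -0.45 ± 0.14 on the control diet (limma adjusted p = 0.0701), and Masp1, a protease of the lectin pathway, at 0.31 ± 0.11 on the control diet (adjusted p = 0.113). Among 7 liver transcription factors 0 were called in any contrast, against the same shares of all genes. Their median genotype change was -0.13 on the ethanol diet and 0.07 on the control diet, and their median ethanol change was 0.00 in null livers and 0.22 in wild-type livers, with 6 of 7 positive in wild-type livers. Their median interaction was -0.21 with 7 of 7 negative, against -0.04 over all genes, which describes the list and carries no test.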

How the data were processed

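RNA of 12 liver samples was measured on 12 arrays, with 3 arrays in each of 4 groups taken from the labels. The deposited values are 1 linear intensity per probe set and array, and the submitters' processing notes name RMA as the authors' normalization. Its software and settings could not be taken from any label or header. Intensities ran from 1.816 to 20156, so log2 was taken here, and no array was left out. Symbols came from the platform annotation, whose build is not given. All 53 members matched RefSeq (GRCm38.p6) by Entrez ID, with 0 changed symbols, and promoters came from RefSeq tables of that build.

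A mean per group was fitted to 14031 genes on all 12 arrays with limma 3.58.1 in R 4.3.3 (lmFit, contrasts.fit, eBayes; 8 residual and 4.95 prior degrees of freedom), with 7 contrasts. P-values were adjusted by Benjamini-Hochberg over all genes tested, and errors are standard errors. The number of arrays limits the precision: the median standard error was 0.116 for a pair of groups. The fit was checked on simulated data. Named genes were those called, the 3 with the smallest p in each contrast, the 2 brightest per clade and the serpins of plasma and liver. Members and lists were chosen with earlier results of these data known. Alternatives were no filter, an offset of 16, quantile normalization, median centring, the mean of probe sets, limma with trend and robust settings, replicate block, 6 arrays alone and leaving out each array.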

Additional observations from a re-analysis of the deposited data

Results flagged for a closer look

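Serpind1, the heparin cofactor II gene, differed with diet in opposite directions in the genotypes. With ethanol its null arrays were lower (12.85, 12.85 and 12.71 in null ethanol, against 12.89, 12.86 and 12.91 in null control) and its wild-type arrays higher (12.90, 12.82 and 12.88 in wild-type ethanol, against 12.81, 12.79 and 12.82 in wild-type control), in both genotypes without overlap. The limma interaction was -0.14 ± 0.11 and did not pass (adjusted p = 0.54). The same pattern of arrays, in either direction, was present for 2.08% of the 14031 genes tested. Groups of 3 arrays were too small for a search for single outlying arrays.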

How the results depend on the processing

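Serpina12 (genotype averaged over the diets) kept its direction and its call under every alternative run. The number of Serpin genes called on the ethanol diet between genotypes was 1, and 0 without the filter or after quantile normalization. With the 6 arrays alone it was again 1, but the gene called was Serpina7 and not Serpina1e. On the control diet it was 0, and 1 (Serpina12) with 16 added to each intensity, with the 6 arrays alone or with the replicate block. The median Serpin change for the interaction was -0.14, and -0.069 without the filter (53 genes in place of 23), -0.093 with 16 added and -0.19 with median centring; for ethanol in null livers it was -0.08, and -0.12 with median centring. The cause of these moves was not tested. With the replicate block, Serpina1e on the ethanol diet stayed at -0.58 and lost its call (limma adjusted p = 0.0599), and the 1 gene called there was Serpina12. Of 18 same-numbered pairs of arrays, 2 had a correlation of deviations over 0.1 (-0.15 to 0.19). Pairs of unlike number spanned a like range, -0.15 to 0.21. With 3 arrays per group this cannot decide whether the numbers pair the arrays.

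Leaving out each array in turn gave 1 to 3 called Serpin genes for genotype averaged, 0 to 1 on the control diet, 0 to 2 on the ethanol diet, 0 to 1 for ethanol in wild-type livers and 0 for the other 3 contrasts. The same fits, of 13959 to 13982 genes, called 621 to 1317 of all genes for genotype averaged and 193 to 1306 on the control diet. They called 108 to 320 on the ethanol diet and 0 to 811 for ethanol in wild-type livers. The Serpin counts thus moved while the calls over all genes moved too. The median Serpin change ranged from -0.012 to 0.036 for genotype averaged, 0.0061 to 0.066 on the control diet, -0.087 to -0.014 on the ethanol diet, -0.13 to -0.037 for ethanol in null livers, 0.02 to 0.056 in wild-type livers, -0.031 to 0.0011 averaged and -0.17 to -0.0704 for the interaction. Signals near the filter limit the folds of Serpina12 and Serpinb1c.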

Other observations

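The pseudogene Serpina4-ps1, which the definition of the family leaves out, varied more between the 12 arrays than most Serpin genes of the same cluster. Its log2 intensities were 9.86, 9.37 and 8.48 in null ethanol, 8.37, 9.0 and 8.62 in null control, 7.79, 10.42 and 9.32 in wild-type ethanol and 8.78, 7.97 and 9.87 in wild-type control arrays. All 4 groups overlapped, and none of the 7 contrasts passed. Genotype averaged over the diets was -0.07 ± 0.41 (limma adjusted p = 0.946), and ethanol averaged over the genotypes was 0.44 ± 0.41 (adjusted p = 0.697). The probe set that names both Serpinb10 and Serpinb2 lay between 4.12 and 4.72, below the filter on every array.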
